A study of Homo sapiens with 6 samples.

Results

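Ribosomal protein genes encode the proteins that, together with ribosomal RNA, build the small and the large subunit of the cytosolic ribosome. The members were all genes of the deposited table whose symbol is RPL or RPS followed by a number with an optional A or X, or is RPSA or RPLP0 to RPLP2. There were 77 of them among 22826 symbols, 31 of the small subunit (RPS) and 46 of the large subunit (RPL). They came from 82 rows, because some members, such as RPS18 and RPS9, had several rows that were summed. The rule uses symbols and no measured value, though it was set with earlier results of these data known.

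A ribosome normally holds a single copy of nearly every ribosomal protein, so the cell has to make them in matched amounts. Ribosomal proteins that are made in excess are degraded. The mRNAs of ribosomal proteins are among the most abundant of a growing cell. They typically begin with a terminal oligopyrimidine (TOP) tract, a C followed by further C and T at the first transcribed base, through which the kinase mTOR controls their translation. Free RPL5 and RPL11, together with the 5S ribosomal RNA, can bind the ubiquitin ligase MDM2 and so stabilise p53. This links ribosome assembly to the pathway named in the title of the series.

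The cells were IMR-32, an established human neuroblastoma line with amplified MYCN, labelled wild type and seeded in wells a day earlier. Cells received the solvent DMSO or 25 nM PTC-028, a compound used to inhibit the Polycomb protein BMI1, for 24 h, with 3 libraries of poly(A)-selected RNA in each group. Levels are TPM, a measure of transcript abundance that is divided by gene length and scaled to the same total in every library. They can therefore be compared between genes, but the length used for each gene is not given. The order and ratios of different genes thus rest on lengths that could not be checked. The levels show shares of the mRNA pool, and in such bulk samples fewer cells of a type and less RNA per cell cannot be told apart. The read depth is unknown, and whether replicates were separate cultures is not stated, so errors and p-values cover only the spread between these libraries. Each library had between 13311 and 13723 symbols at a TPM of at least 1. The neuroblastoma markers HAND2 (484 to 544 TPM) and MYCN (1059 to 1186 TPM) were high in all libraries. Of 9 measured markers of other cell types, the 2 at a mean above 1 TPM were COL1A1 at 16.0 TPM, a collagen gene, and PTPRC at 4.34 TPM, a leukocyte marker. The summed level of the 9 was 19.1 to 23.7 TPM in DMSO and 21.7 to 25.3 TPM in PTC-028.

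The start regions of a few genes are shown because the TOP tract is the feature that most of these genes shared and that the choice by name did not use. Each window runs from 15 bases before to 20 bases after the start listed in RefSeq (GRCh38.p14), 5′ to 3′ on the gene's own strand. Capitals mark a tract of C followed by at least 4 pyrimidines at the first base.
RPL41: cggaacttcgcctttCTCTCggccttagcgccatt
RPS27: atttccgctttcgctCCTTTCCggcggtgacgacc
RPL31: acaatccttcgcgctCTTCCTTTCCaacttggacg
RPS9: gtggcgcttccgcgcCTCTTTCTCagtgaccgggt
RPL22: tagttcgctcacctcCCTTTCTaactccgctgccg
RPS26: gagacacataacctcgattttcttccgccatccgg
RPS4X: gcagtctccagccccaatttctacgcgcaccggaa
RPL22L1: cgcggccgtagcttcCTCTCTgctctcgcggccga
RPS27L: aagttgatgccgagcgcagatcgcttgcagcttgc
EEF2: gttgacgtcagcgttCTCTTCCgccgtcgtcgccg

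The RPL41 window lies at chr12:56116618-56116652 and that of RPS27 at chr1:153990747-153990781, both on the plus strand. Those of RPL22 (chr1:6199576-6199610), RPS27L (chr15:63157458-63157492) and RPL22L1 (chr3:170870176-170870210) lie on the minus strand. Of the 77 members, 62 were found in the RefSeq table of starts. A tract stood at a listed start of 46 of these 62 (74.2%), beside 5.14% of all 27305 genes of that table and 7.65% of the tested genes found in it. The tracts had a median length of 8 bases among the members that had one. Tracts were found at both ends of the order of abundance, in RPL41, RPS27 and RPL31 at the top and in RPS9 and RPL22 at the bottom. The 46 members with a tract had a median level of 2676 TPM and the 16 without one a median of 2701 TPM. The 16 included the abundant RPL27 and RPL4 and the scarce RPS26 and RPS4X. A start that is listed a few bases away from the true one would hide a tract, and RPL15, for example, had 3 listed starts and none with a tract. The window from 250 bases before to 50 after the start was also searched on both strands for short sequences. The ETS-family sequence CCGGAAG occurred in 22 of 62 members (35.5%), in 12.2% of all genes of the RefSeq table and in 22.8% of the tested genes found in it. The E-box CACGTG, to which MYC-family proteins bind, occurred in 4 members (6.45%), in 8.77% of all genes and in 12.9% of those tested. The SP-family sequence GGGCGG occurred in 36 members (58.1%), in 48.3% of all genes and in 78.0% of those tested. For the YY1 sequence AAGATGGC these values were 6 members (9.68%), 3.52% and 6.60%. For the TATA box TATAAA they were 5 members (8.06%), 14.0% and 8.02%.

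Another feature common among the members was the small nucleolar RNA (snoRNA) genes that lie inside them, whose products guide the modification of ribosomal RNA. By GENCODE 29, 28 of the 76 members with a primary-assembly identifier held at least 1 annotated snoRNA gene on their own strand (36.8%), beside 1.41% of the 17490 protein-coding genes of the table. RPL4 held 5. The members were scattered over 21 chromosomes, with 12 of 76 on chromosome 19.

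Together the 77 genes took a large part of the mRNA signal of these cells. Their share of all TPM was 23.7%, 22.7% and 24.2% for DMSO replicates 1 to 3 and 24.0%, 23.8% and 23.4% for PTC-028 replicates 1 to 3. The DMSO group held both the lowest and the highest share, so the PTC-028 values lay within the DMSO range. The means were 23.5% ± 0.768 and 23.7% ± 0.294 (SD, n = 3 each), a difference of 0.168 percentage points. That difference was -0.253 without DMSO replicate 2 and 0.50 without DMSO replicate 3. Members made up 62 of the 100 most abundant genes and 5 of the top 10. The least abundant member stood at place 205 of all 22826 symbols.

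The small subunit took 9.43% ± 0.334 of TPM in DMSO and 9.48% ± 0.151 in PTC-028, and the large subunit 14.1% ± 0.435 and 14.2% ± 0.152 (SD, n = 3 each). The ratio of the small to the large subunit sum was 0.666, 0.665 and 0.671 in DMSO and 0.666, 0.671 and 0.660 in PTC-028, so the groups overlapped. The number of genes has nearly the same ratio, 0.674, which means that an average small subunit gene and an average large subunit gene had close to the same level. In DMSO the mean per gene was 3041 TPM for the small and 3070 TPM for the large subunit. With PTC-028 these means were 3057 and 3095 TPM.

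The levels of single members were far from equal, although nearly all of their proteins are needed in equal numbers. RPL41, which encodes one of the smallest human proteins, was the most abundant member, at 10791, 9989 and 10254 TPM in DMSO and at 10632, 10120 and 9891 TPM in PTC-028. RPL22, a large subunit protein that mice can live without, was the least abundant, at 644, 626 and 654 TPM in DMSO and at 603, 601 and 623 TPM in PTC-028. The mean of RPL41 was 16.4 times that of RPL22, and their order was the same in all 6 libraries. Among the 8 most abundant members RPL41 was followed by RPS27 (9242 ± 484 TPM), RPL37A (7769 ± 274), RPL31 (6191 ± 168), RPL27 (6067 ± 227), RPS18 (6032 ± 239), RPL4 (5707 ± 111) and RPLP0 (5645 ± 174 TPM; SD over 6 libraries). Upwards from RPL22 the 8 least abundant were RPS9 (796 ± 81.5 TPM), RPS26 (923 ± 40.7), RPS25 (1150 ± 32.9), RPL14 (1170 ± 29.2), RPL28 (1190 ± 82.4), RPSA (1196 ± 53.4) and RPS4X (1200 ± 40.0 TPM). The level of RPS4X leaves out its paralogue RPS4Y1, whose mean was 553 TPM with DMSO and 545 TPM after the compound. The low place of RPS4X therefore holds for that gene alone. RPL32 at 2555 TPM and RPL13A at 2576 TPM stood in the middle.

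Relative to the median member of the same library, RPL41 was at 3.96 and RPL22 at 0.241. Levels within 2-fold of the median member were found for 59 of 77 genes, at least 2-fold above it for 10 and at or below 0.5 of it for 8. The 10 most abundant members held 28.6% of the summed TPM of the members, and the 10 least abundant 4.67%. Both subunits were found at each end, with 4 small subunit genes among the top 10 and 6 among the bottom 10. Level and coding length were nearly unrelated over the 76 members with a known length (Spearman rho = -0.10, a description across genes that share the same libraries and a division by length).

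**Figure D1:**
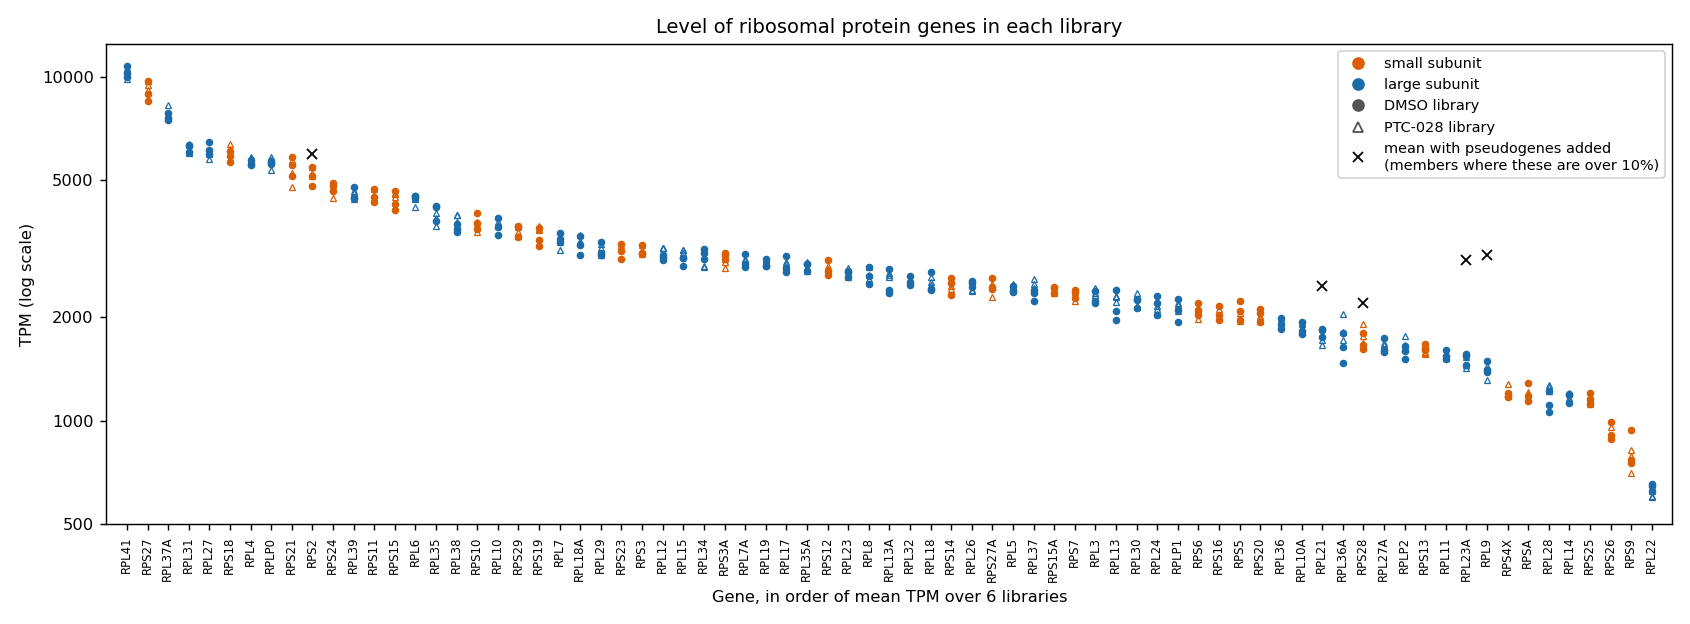
TPM of the ribosomal protein genes reported by name (log axis) in order of mean level, with 1 point per library (filled circles for DMSO, open triangles for PTC-028) and subunits by colour. Crosses give the mean with pseudogene TPM added for the 5 members where this is over 10% of the sum. RPL41, RPS27 and RPL37A stand above the rest and RPS26, RPS9 and RPL22 below, while the points of most neighbours overlap.

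This order was stable between libraries. Over the 77 genes, Spearman correlations between pairs of libraries lay between 0.989 and 0.997, and Pearson correlations of log2 TPM between 0.994 and 0.998. These ranges cover all pairs, within and between the groups. The correlations describe genes within shared libraries and are not replicates. The first 3 places, RPL41, RPS27 and RPL37A, and the last, RPL22, were the same in every library, and 37 members moved by at most 3 places. Neighbours were nevertheless seldom distinct, since only 6 of 76 neighbouring pairs had ranges over the 6 libraries that did not overlap.

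For 5 members, pseudogenes named after the gene held over 10% of the TPM of gene and pseudogenes together. A processed pseudogene, the most frequent kind here, is an intronless copy elsewhere in the genome. Whether these copies are transcribed or took reads of the parent gene was not tested. The table listed 445 pseudogenes named after 69 of the members. Together they held between 0.495% and 0.549% of TPM, and 5 of them held 95.6% of that. RPL9P9 stood at 1637, 1612 and 1745 TPM in DMSO and 1523, 1578 and 1672 TPM in PTC-028, above RPL9 itself, which had a mean of 1409 TPM. RPL23AP42 averaged 1382 TPM beside 1494 TPM for RPL23A. RPS2P5 averaged 719 TPM, RPL21P16 682 TPM and RPS28P7 463 TPM. Reads of near-identical copies cannot be told apart here, so these levels of parent and copy are uncertain. With the pseudogenes added, RPL9 moved from place 68 to place 29 at 3040 TPM, RPL23A from 67 to 33 at 2935 TPM, RPL21 from 60 to 46, RPS28 from 62 to 55 and RPS2 from 10 to 7. RPS18 had rows only of alternative haplotypes, and in RPS9 the row that held most of the TPM (87.0%) was not the primary one. The read-through transcripts that include RPL17, RPS10 or RPL36A were low, at means of 8.68, 11.8 and 2.45 TPM.

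The members of known sub-complexes showed the same unequal levels. RPLP0, RPLP1 and RPLP2 form the stalk of the large subunit that recruits elongation factors, in which RPLP0 carries pairs of RPLP1 and RPLP2. At the mRNA level the order was the opposite, with RPLP0 at 2.70 ± 0.178 times RPLP1 and 3.56 ± 0.127 times RPLP2 in DMSO, and at 2.63 ± 0.169 and 3.35 ± 0.0939 times in PTC-028 (SD, n = 3 each). RPL5 and RPL11 bind the 5S ribosomal RNA together. The ratio of RPL5 to RPL11 was 1.55, 1.56 and 1.53 in DMSO and 1.59, 1.64 and 1.6 in PTC-028. These values did not overlap between the groups. The levels of 24.3% of all genes tested did not overlap either, and the share among ratios of other genes was not computed. The groups overlapped for each of the 3 ratios within the stalk. For RPLP0 to RPLP2 the overlap was narrow, with 3.453 in DMSO replicate 3 and 3.455 in PTC-028 replicate 3. No test was made of these 4 ratios. The genes themselves did not pass the test: RPL5 was at 2406 ± 48.1 and 2464 ± 36.3 TPM (log2 fold change 0.03, limma adjusted p = 0.624), and RPL11 at 1553 ± 45.7 and 1530 ± 12.1 TPM (-0.02, adjusted p = 0.791). The value of RPL11 was 0.0017 without DMSO replicate 3.

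The comparison of PTC-028 with DMSO asked whether ribosomal protein mRNAs changed with the compound. No member passed the test. All 77 reached the filter of at least 1 TPM in at least 3 libraries, and 0 had a limma adjusted p under 0.05, beside 2.1% of the 13552 genes tested. At an unadjusted p under 0.05 there were 5, all higher in PTC-028, beside 10.2% of all genes tested that were higher and 7.55% that were lower at that threshold. The same 0 passed under each of 19 alternatives, in which the smallest adjusted p of any member was 0.0531, for RPL28 without DMSO replicate 3.

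The log2 fold changes, all on the log2(TPM + 1) scale, lay between -0.08 for RPS9 and 0.18 for RPL36A. Of the members, 44 were above 0 and 33 below, with a median of 0.01, beside a median of 0.03 for all genes tested. The median was 0.03 without DMSO replicate 3 but -0.02 without DMSO replicate 2, and -0.02 under median ratio scaling of the libraries. The large subunit had a median of 0.01, with 30 of 46 above 0, and the small subunit a median of -0.02, with 14 of 31 above 0. The small subunit median was above 0 in 3 of 19 alternatives and the large subunit median below 0 in 3. The 95% confidence intervals of the members had a median half-width of 0.10 and ran from -0.29 at the lowest, for RPS9, to 0.37 at the highest, for RPL36A. A p that missed the threshold does not show that the levels were equal.

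**Figure D2:**
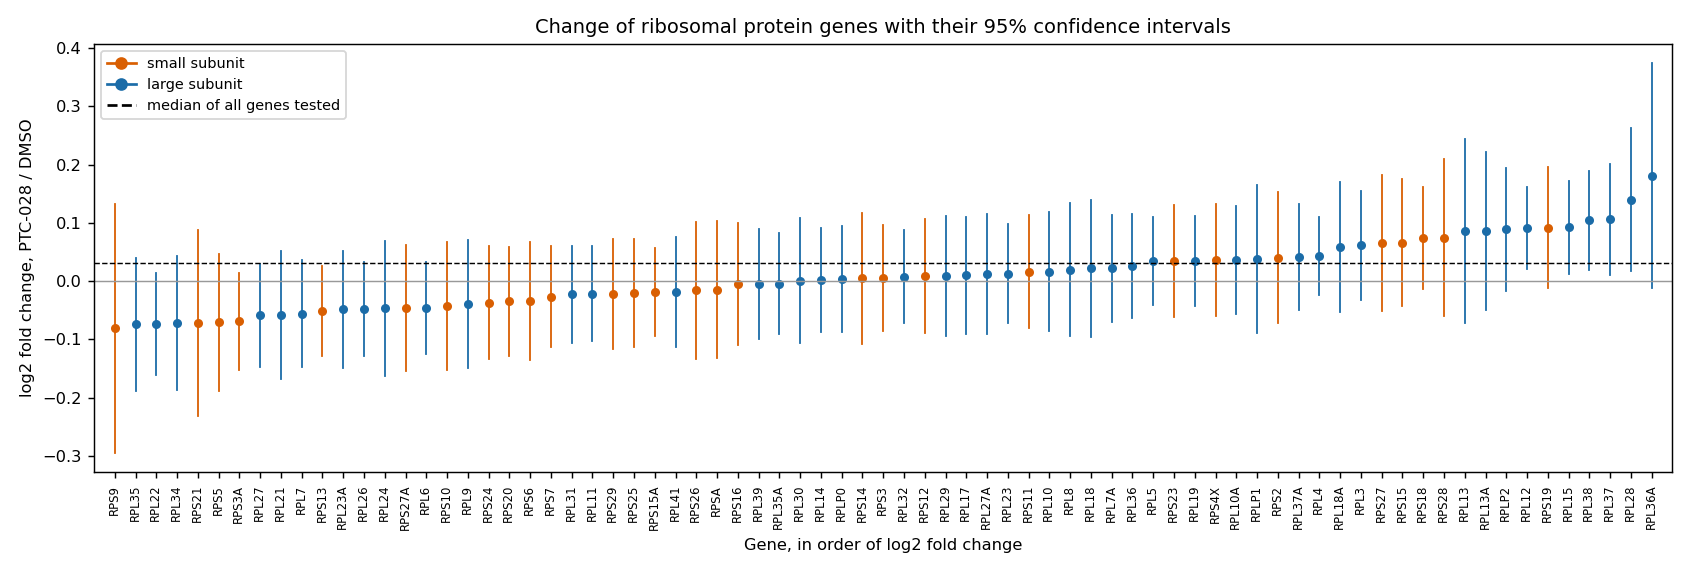
Log2 fold change (PTC-028 over DMSO) of each ribosomal protein gene reported by name with its 95% confidence interval from limma, ordered by size and coloured by subunit. The dashed line is the median of all genes tested, 0.03. The values run from -0.08 for RPS9 to 0.18 for RPL36A.

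The 5 members at an unadjusted p under 0.05 were RPL12, RPL38, RPL15, RPL28 and RPL37, all of the large subunit. The number of members at that threshold depended on the setting. It was 0 under median ratio scaling, with no filter on low values or with eBayes without a trend. Without PTC-028 replicate 3 it was 1, and without DMSO replicate 3 it was 15. RPL12, which sits at the base of the stalk (chromosome 9, 127447674 to 127451405, GRCh38), had the smallest p. Its level was 3032, 2938 and 2996 TPM in DMSO and 3186, 3187 and 3178 TPM in PTC-028, so all PTC-028 libraries lay above all DMSO libraries. The log2 fold change was 0.09 ± 0.03 (SE, n = 3 each; limma adjusted p = 0.178). RPL38 (chromosome 17, 74203582 to 74210655), known in mice for its part in translating Hox mRNAs, was at 3735, 3532 and 3621 TPM in DMSO and at 3963, 3772 and 3968 TPM in PTC-028. The groups did not overlap, and the change was 0.10 ± 0.04 (SE; limma adjusted p = 0.204). RPL28 (chromosome 19, 55385345 to 55403250) stood at 1112, 1063 and 1224 TPM in DMSO and at 1253, 1220 and 1267 TPM in PTC-028. DMSO replicate 3 reached into the PTC-028 range, and the change was 0.14 ± 0.05 (SE; limma adjusted p = 0.232). RPL15 (chromosome 3, 23916545 to 23924374) stood at 2964, 2826 and 2978 TPM in DMSO and at 3069, 3129 and 3146 TPM in PTC-028, which gave a log2 fold change of 0.09 ± 0.03 (SE; limma adjusted p = 0.223). RPL37 (chromosome 5, 40825262 to 40835335) was at 2401, 2226 and 2349 TPM and at 2585, 2490 and 2431 TPM, a log2 fold change of 0.11 ± 0.04 (SE; limma adjusted p = 0.240). For both genes the PTC-028 values lay above all DMSO values, by a narrow margin between the nearest libraries. RPL36A had the highest value, 0.18 ± 0.08 (SE), on libraries that varied widely, from 1474 to 1801 TPM in DMSO and from 1714 to 2040 TPM in PTC-028 (limma adjusted p = 0.305).

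No member was lower at an unadjusted p under 0.05. RPS3A was at 3026, 2950 and 3082 TPM in DMSO and at 2788, 2953 and 2893 TPM in PTC-028, where replicate 2 reached into the DMSO range. RPL22 and RPS3A, those below 0 with the smallest p, had log2 fold changes of -0.07 ± 0.04 and -0.07 ± 0.04 (SE; limma adjusted p = 0.354 and 0.358). All PTC-028 libraries of RPL22 lay below all DMSO libraries, but the value was 0.01 after quantile normalisation. Groups without overlap were found for 5 members that were higher (RPL12, RPL38, RPL15, RPL37 and RPL4), beside 13.6% of all genes tested, and for 3 that were lower (RPL22, RPS13 and RPL6), beside 10.7%. None of the 14 members reported to bind MDM2 passed, with a median of -0.01 and 7 on either side of 0. RPL37, above, and RPS15, at 0.07 (limma adjusted p = 0.510), had the smallest p of these. RPL26, which also binds the p53 mRNA, was at -0.05 (limma adjusted p = 0.517). Of 19 members mutated in Diamond-Blackfan anaemia, an inherited failure of red cell production, none passed and the median was -0.02. RPL15 and RPS19 had the smallest p. RPS19, the gene most often affected in that disease, was at 0.09 (limma adjusted p = 0.336). Of the 7 genes at the peptide exit, where the new protein leaves the ribosome, 0 passed and the median was -0.02. RPL35 and RPL26 had the smallest p among them, and RPL35 was at -0.07 (limma adjusted p = 0.476). Of the 3 stalk genes 0 passed, with RPLP2 at 0.09 (limma adjusted p = 0.355), RPLP1 at 0.04 (0.768) and RPLP0 at 0.0036 (0.972). In DMSO and PTC-028 RPLP2 was at 1586 ± 70.4 and 1686 ± 64.6 TPM, and RPLP1 at 2098 ± 157 and 2150 ± 58.7 TPM (SD, n = 3 each).

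The members shifted together between libraries of the same group. DMSO replicate 2 had the lowest of the 3 DMSO values for 72 of 77 members, beside 22.1% of all genes tested. DMSO replicate 3 had the highest for 58 of 77, beside 31% of all genes tested. Relative to its own mean over 6 libraries, the median member stood at -0.01, -0.06 and 0.05 on the log2 scale in DMSO replicates 1 to 3 and at 0.02, 0.004 and -0.004 in PTC-028 replicates 1 to 3. The PTC-028 medians thus lay inside the DMSO range. The within-group SD of a member had a median of 0.054 (log2 scale), which fell to 0.039 when libraries were scaled to the same sum of the members. A fall is built into this scaling, because it removes shifts that the members share. All genes tested had a median SD of 0.126, but the 128 other genes at or above the level of the least abundant member had one of 0.057, close to that of the members. With the libraries scaled to the members' sum, which by design removes a change shared by the members, 0 members passed. In that setting 35 were above 0 and 42 below, and RPL28 had the smallest p (limma adjusted p = 0.213). Mitochondrially encoded genes, which share the fixed total, took 5.60%, 4.98% and 4.50% of TPM in DMSO and 5.39%, 5.67% and 6.00% in PTC-028. Their part in the shifts of the members was not tested beyond their removal, which left 0 members past the threshold and 47 above 0.

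**Figure D3:**
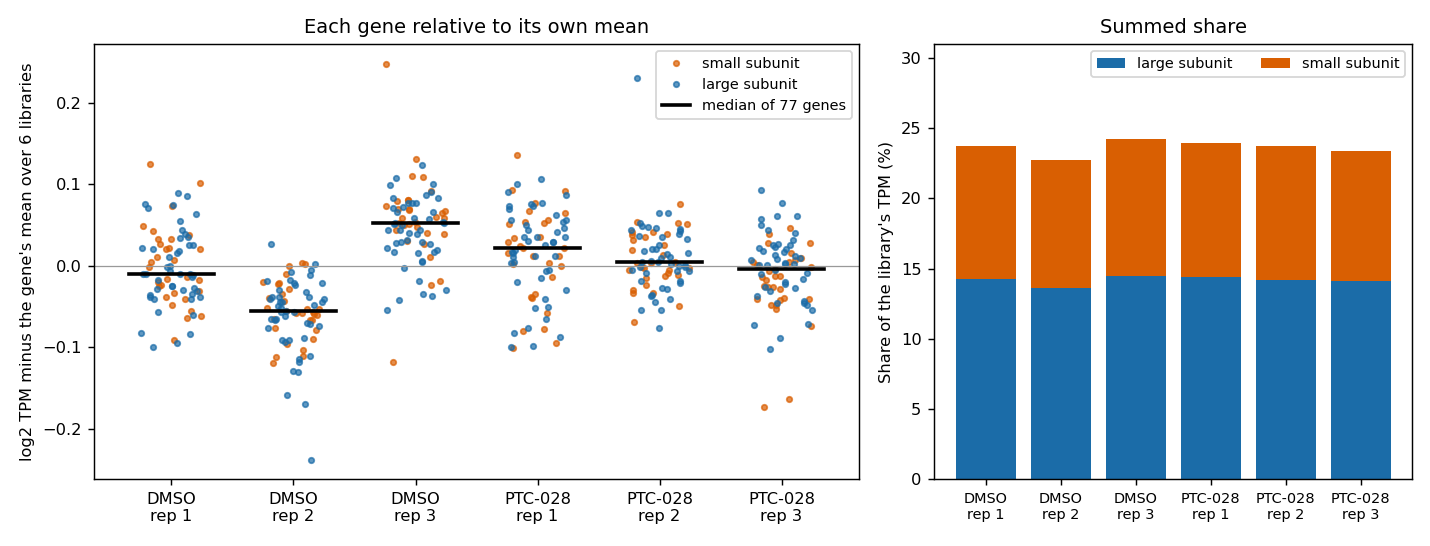
Left, log2 TPM of each of the 77 genes minus the gene's mean over the 6 libraries, by library, with the median as a bar. Right, the share of each library's TPM held by the large and the small subunit genes. DMSO replicate 2 has the lowest median (-0.06) and share (22.7%) and DMSO replicate 3 the highest (0.05 and 24.2%), with the PTC-028 libraries between.

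Several ribosomal proteins have a paralogue or are made as part of a fusion protein, and among these genes RPS27L rose and RPL22L1 fell. The other 8 of the 10 that were measured did not pass, beside 2.1% of all genes tested that passed, and the median of the 10 was -0.06. RPS27L, a paralogue of RPS27 and a known target of p53, was at 164, 164 and 161 TPM in DMSO and at 262, 292 and 292 TPM in PTC-028. All PTC-028 libraries lay far above all DMSO libraries, and the log2 fold change was 0.79 ± 0.05 (SE; limma adjusted p = 0.000731). The call was kept in all 19 alternatives, with adjusted p up to 0.0131. RPS27 itself stood at 9708, 8895 and 8507 TPM in DMSO and at 9461, 9730 and 9151 TPM in PTC-028, with groups that overlapped and a log2 fold change of 0.07 ± 0.05 (SE; limma adjusted p = 0.536). RPS27L was thus 1.81% ± 0.105 of the RPS27 level in DMSO and 2.99% ± 0.213 in PTC-028 (SD, n = 3 each).

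RPL22L1, the paralogue of RPL22, was slightly more abundant than RPL22 in DMSO, at 694, 688 and 704 TPM, and at 591, 612 and 602 TPM in PTC-028. In mice the RPL22 protein represses this paralogue. All 3 PTC-028 values lay below all 3 DMSO values, and the log2 fold change was -0.21 ± 0.04 (SE; limma adjusted p = 0.0279). This call stood in 10 of 20 settings. It held when DMSO replicate 3 was left out but not when any other library was, with limma adjusted p up to 0.124, nor after median ratio scaling (0.0529) or quantile normalisation (0.118). After quantile normalisation the log2 fold change was -0.12, the smallest of all settings, and the highest limma adjusted p of any setting was 0.179, with eBayes without a trend. The level of RPL22L1 was 108% ± 1.34 of that of RPL22 in DMSO and 98.8% ± 2.70 in PTC-028. RPL39L and RPL36AL were also lower in all PTC-028 libraries than in any DMSO library, without passing, at log2 fold changes of -0.19 and -0.10 (limma adjusted p = 0.233 and 0.312). Among the 10 paralogues and fusion genes, 3 were lower without overlap, beside 10.7% of all genes tested, and 1 higher, beside 13.6%. Over 7 pairs of member and paralogue, the log2 ratio had no overlap between the groups in 4 (RPS27L, RPL22L1, RPL36AL and RPL39L). The levels of 24.3% of all genes tested had no overlap, while the share among ratios of other genes was not computed. The exact 2-sided permutation p was 0.1 for each of the 4 pairs, the smallest that 3 against 3 libraries allow. Adjusted over the 7 pairs, this permutation p was 0.175. FAU encodes a small subunit protein as a fusion to a ubiquitin-like protein. It stood at 1222 ± 48.5 TPM in DMSO (SD, n = 3), within the range of the members, and had a log2 fold change of -0.09 (limma adjusted p = 0.370).

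**Figure D4:**
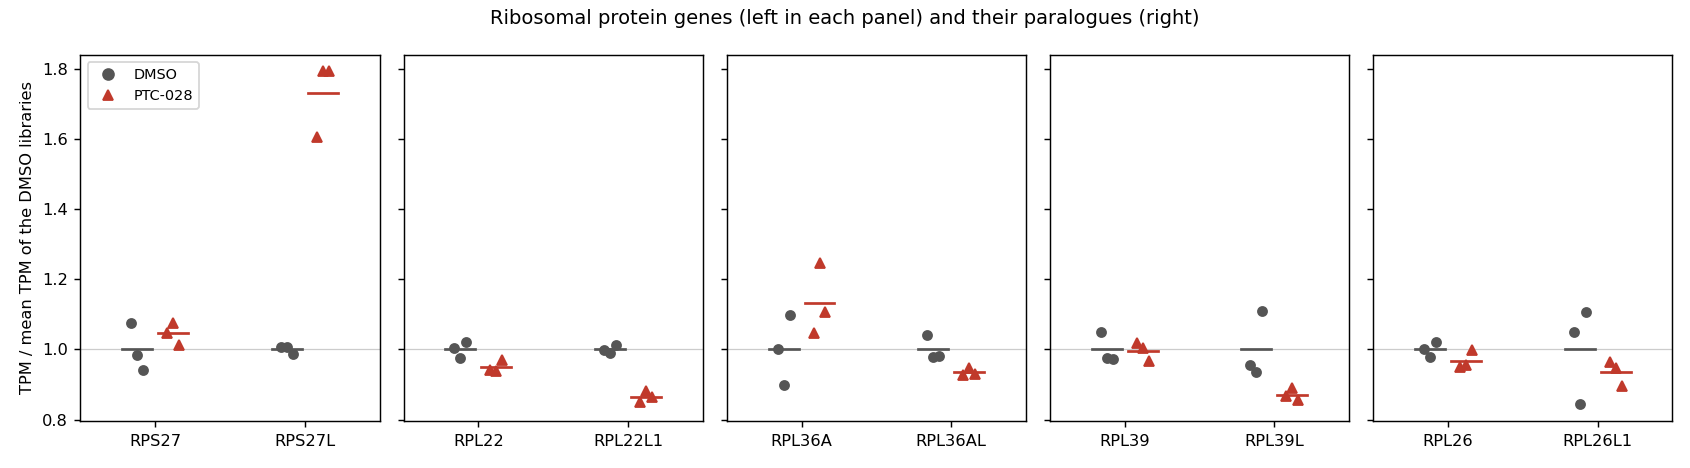
TPM of 5 ribosomal protein genes and their paralogues, divided by the mean of the DMSO libraries, with 1 point per library (grey circles for DMSO, red triangles for PTC-028) and bars for group means. RPS27L is higher in all 3 PTC-028 libraries and RPL22L1 lower, beside groups that overlap for RPS27, RPL36A, RPL39 and RPL26.

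Other mRNAs of the translation machinery are compared as lists. Among 18 further mRNAs known to carry a TOP tract, EEF2 and PABPC1 rose and the other 16 did not pass, beside 2.1% of all genes tested that passed. At an unadjusted p under 0.05, 7 of the 18 were higher and 0 lower, beside 10.2% and 7.55% of all genes tested. Higher without overlap were 7 of 18, beside 13.6%, and lower 0, beside 10.7%. The median log2 fold change of the 18 was 0.03, beside 0.03 for all genes tested. EEF2, the elongation factor that moves the ribosome along the mRNA, was at 1328, 1345 and 1403 TPM in DMSO and at 1691, 1576 and 1652 TPM in PTC-028. The groups did not overlap, with a log2 fold change of 0.27 ± 0.04 (SE; limma adjusted p = 0.0174). PABPC1, which binds the poly(A) tail, was at 905, 922 and 858 TPM in DMSO and at 1104, 1058 and 1149 TPM in PTC-028, also without overlap, a log2 fold change of 0.30 ± 0.05 (SE; limma adjusted p = 0.0174). Neither gene passed once DMSO replicate 1, PTC-028 replicate 1 or PTC-028 replicate 3 was left out, where limma adjusted p reached 0.0904 for EEF2 and 0.0763 for PABPC1. EEF2 also lost its call after median ratio scaling (0.0721), and PABPC1 with libraries scaled to the members' sum (0.0529). EEF1A1, the elongation factor that delivers tRNA and a gene more abundant than any member, was at 11753 ± 282 and 11622 ± 361 TPM (log2 fold change -0.02, limma adjusted p = 0.843).

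Of the 78 mitochondrial ribosomal protein genes, whose products build the separate ribosome of the mitochondrion, 0 passed. At an unadjusted p under 0.05 were 12, all lower, beside 7.55% of all genes tested that were lower and 10.2% that were higher. Lower without overlap were 14 of 78, beside 10.7% of all genes tested, and higher 0, beside 13.6%. Values below 0 were found for 61 of 78, beside 5751 of all 13552 genes tested. The median was -0.06, beside 0.03 for all genes tested. The median was below 0 in all 19 alternatives, between -0.08 and -0.04. Their summed share was 0.726%, 0.712% and 0.764% of TPM in DMSO and 0.696%, 0.703% and 0.692% in PTC-028, without overlap. MRPL13 and MRPS6 had the smallest p, at -0.27 and -0.21 (limma adjusted p = 0.0767 and 0.109). None of 10 factors that load or protect ribosomal proteins passed, with 0 at an unadjusted p under 0.05 and a median of -0.04. BCCIP and RPS19BP1 had the smallest p, at -0.09 and -0.13 (limma adjusted p = 0.370 and 0.373). None of 9 regulators of TOP mRNAs passed, with 1 at an unadjusted p under 0.05. This was EIF4EBP1, which encodes the translation repressor 4E-BP1, at 250 ± 23.2 and 211 ± 1.41 TPM in the DMSO and PTC-028 groups (log2 fold change -0.24, limma adjusted p = 0.123). RPTOR, the mTOR partner, was at 0.16 (limma adjusted p = 0.346).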

How the data were processed

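RNA sequencing of 6 libraries gave 1 table of TPM, length-normalised values that the authors deposited for 23555 gene rows and that sum to between 999990 and 999999 per library. Reads were placed on GRCh38, per the submitters' processing notes. Not given in the sources used here are aligner, quantifier and gene models. Rows of the same symbol were summed, except 29 symbols that a spreadsheet had turned into dates or numbers. Coordinates came from GENCODE 29 by identifier, and starts from RefSeq. The 13552 symbols that reached 1 TPM in 3 or more libraries were tested on log2(TPM + 1) with limma 3.58.1 (R 4.3.3). The model held treatment alone, eBayes used a trend, and 2-sided p-values were adjusted by Benjamini-Hochberg across these symbols. The threshold was an adjusted p of 0.05. The procedure was tested on simulated data. The 77 members, the gene lists and the alternatives were chosen with earlier results of these data known. Members were named freely. The rule asked for full values of the 4 members with the highest log2 fold change at an unadjusted p under 0.05 and of the 2 below 0 with the smallest p, and RPL12 was added as the member with the smallest p. From other lists came up to 4 genes that passed, or the 2 with the smallest p, and EEF1A1 and a few paralogues and fusion genes were added after their values were seen. Shares and ratios over the members carry no test. Depth cannot be read from TPM, so no counting interval is given. A few genes are counted in the totals but not reported here by name.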

Additional observations from a re-analysis of the deposited data

How the results depend on the processing

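Under 19 alternatives (pseudocounts of 0.1 and 5, filters, scalings, summing of rows, pseudogenes, eBayes settings, the replicate block and each library left out) 0 ribosomal protein genes passed. The number of all genes past the threshold was 285, and 140 with no filter on low values, 137 with eBayes without a trend, and 80 to 250 with 1 library left out. Correlations of deviations between libraries of the same replicate number were 0.05, -0.01 and -0.12, beside -0.09 to 0.10 for different numbers. With 3 libraries per group these values cannot decide whether replicate numbers pair the libraries. With the replicate block 99 genes, 0 other TOP mRNAs and 1 paralogue passed. Of the other TOP mRNAs, 2 passed, but 0 with no filter or without a trend, 1 after median ratio scaling or scaling to the members' sum, 3 without mitochondrially encoded genes, 4 after quantile normalisation and 0 to 2 with 1 library left out. Of the paralogues and fusion genes 2 passed, and 1 with no filter, median ratio scaling, quantile normalisation or no trend, and 1 to 2 with 1 library left out. The difference in share was between -0.253 and 0.50 percentage points with 1 library left out, and that in the subunit ratio between -0.00464 and 0.000803. Signs near 0 turned, and the cause was not tested. After quantile normalisation RPL22 was at 0.0082, RPS27 at -0.069, RPL11 at 0.0040 and RPLP0 at -0.020. RPLP0 was also at -0.02 under median ratio scaling and at -0.0071 with scaling to the members' sum, and RPS9 at 0.00083 with rows kept apart. With 1 library left out, RPL41 lay between -0.047 and 0.013, RPL11 between -0.039 and 0.0017, RPLP0 between -0.023 and 0.043, RPLP1 between -0.018 and 0.090 and RPS9 between -0.14 and 0.022.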
